A study of Mus musculus with 2 samples.

Results

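Globin-rich late primitive erythroblasts are the embryonic red cell precursors in which messenger RNA for embryonic haemoglobin has come to fill a large share of the transcriptome. They were taken here as the cells in which Hbb-y, Hbb-bh1 and Hba-x together made at least 20% of all unique molecular identifiers (UMIs, each standing for 1 captured RNA molecule). Of 1634 mouse yolk sac cells that passed the filters, out of 1680 barcodes, 346 met this rule. There were 207 among 847 cells of the Baf155 CKO library and 139 among 787 cells of the wild-type (WT) library.

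Both libraries were 10x Genomics single-cell libraries from yolk sacs of the B6 strain. Yolk sacs of E9.5 and E10.5 embryos had been combined in equal number before dissociation, so the stage of a given cell is not recorded. The cells had been frozen, thawed and sorted for being alive and negative for Ter119, a surface antigen of maturing red cells, so the erythroblasts described below are those that remained after a sort against their own lineage. One library came from Baf155 CKO embryos (also written Baf155 KO in the labels) and the other from wild-type embryos. The Cre driver, the deleted exon and the number of embryos are details that the sources used here leave out. The material is called nuclei in the labels, where the protocol describes whole live cells.

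The first red cells of the mouse embryo arise in the yolk sac, enter the circulation as nucleated erythroblasts and mature there as a cohort. Their haemoglobin pairs the alpha-like zeta chain (Hba-x) or the adult alpha chains (Hba-a1, Hba-a2) with the beta-like chains epsilon-y (Hbb-y) and beta-h1 (Hbb-bh1). Along primitive maturation Hbb-bh1 gives way to Hbb-y and Hba-x gives way to the adult alpha genes, while the adult beta genes Hbb-bs and Hbb-bt are the mark of definitive red cells. Smarcc1 encodes Baf155, a scaffold protein of BAF, the mammalian SWI/SNF machine that slides and evicts nucleosomes.

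The promoters of 3 globin genes and of Alas2, the erythroid enzyme that starts haem synthesis, are shown because the results turn on these genes. Each is the stretch of 120 bases that ends just before the RefSeq transcription start (GRCm38.p6), written 5′ to 3′ on the strand of the gene. Capitals mark matches on either strand to 4 motifs: CACCC, the core of the element bound by Klf factors; GATA, that of Gata1; CCAAT, the upstream box of many promoters; and TATA, whose matches may overlap. A match on the opposite strand reads as the reverse complement and is in capitals too.
Hbb-y, chr7:103853208-103853327, minus strand: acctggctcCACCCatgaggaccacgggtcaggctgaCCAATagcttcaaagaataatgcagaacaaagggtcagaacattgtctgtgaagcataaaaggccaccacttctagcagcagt
Hba-x, chr11:32276480-32276599, plus strand: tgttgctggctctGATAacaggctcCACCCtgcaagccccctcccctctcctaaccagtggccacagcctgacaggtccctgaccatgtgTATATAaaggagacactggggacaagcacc
Hba-a1, chr11:32283552-32283671, plus strand: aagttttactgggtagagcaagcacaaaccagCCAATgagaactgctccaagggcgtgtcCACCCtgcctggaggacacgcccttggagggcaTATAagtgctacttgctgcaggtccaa
Alas2, chrX:150547297-150547416, plus strand: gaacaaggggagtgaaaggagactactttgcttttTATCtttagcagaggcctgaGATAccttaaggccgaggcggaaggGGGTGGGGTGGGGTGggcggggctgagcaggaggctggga
All 4 windows held CACCC, which 31.7% of 32851 mouse promoters held in the same window. Alas2 held it 3 times and GATA 2 times, against 1 CACCC in each globin promoter. GATA was in 29.5% of all promoters, CCAAT in 21.3% and TATA in 17.7%. A match is a run of letters and not a shown binding site. Of the 9 globins and marker genes looked up, 7 had a promoter in the RefSeq table used here. Hba-a1 and Hba-a2 shared an identical run of 297 bases out of 300 around the start.

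The globin-rich erythroblasts made 24.4% of kept cells in the Baf155 CKO library (95% interval 21.6 to 27.5%) and 17.7% in the WT library (15.1 to 20.5%). There was 1 library per genotype and no replicate, so no test between genotypes was made, and all intervals are exact 95% intervals that cover counting error only. Differences between genotypes, embryos, sorts and libraries cannot be told apart. The rule did not cut through an empty gap: 84 CKO and 49 WT cells lay just inside it, between 20 and 25% embryonic globin, and 34 CKO and 11 WT cells lay just outside, between 15 and 20%. The nearest CKO cells stood at 20.07% inside and 19.95% outside, and the nearest WT cells at 20.36% inside and 19.69% outside.

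Cells with 2 to 20% embryonic globin and at least 1 UMI of Klf1, Alas2 or Slc4a1 served as lower-globin erythroblasts. There were 58 of these in the CKO library (6.85%, 5.24 to 8.76%) and 16 in the WT library (2.03%, 1.17 to 3.28%). Most other cells, 578 CKO and 632 WT, held under 2%. Their median embryonic globin share was 0.218% in CKO and 0.0312% in WT, and the part free RNA had in this was not tested. Barcodes that failed the filters numbered 18 in CKO, 9 of them with at least 20% globin, and 28 in WT, of which 0 had that much. Scrublet called 3 CKO members and 0 WT members doublets, and the libraries shared 1 barcode, which was not a member in both.

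**Figure D1:**
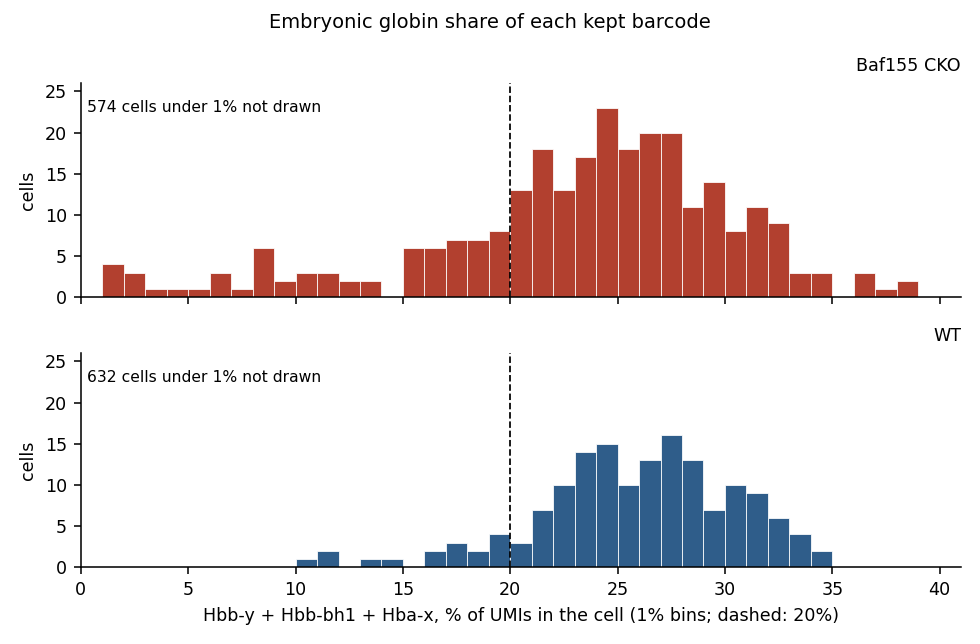
Number of cells (vertical axis) by percent of UMIs from Hbb-y, Hbb-bh1 and Hba-x (horizontal axis), with Baf155 CKO above WT and the 20% rule marked. Cells under 1% are not drawn (574 CKO and 632 WT); the remaining cells form a broad hump on both sides of 25% with a thin tail below, which reaches down to 1% in CKO and to 10% in WT.

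The cells were deeply sequenced. A member held a median of 34493 UMIs in CKO (6791 to 84766) and 34200 UMIs in WT (6071 to 114332), from a median of 3715 genes in CKO and 3602 in WT. Depth therefore hardly differed between the genotypes. The members held 7392635 UMIs in CKO and 5094408 in WT, of which 5451057 in CKO and 3715570 in WT lay outside the 3 globins of the rule. Because these 3 genes take so much of each cell, all other genes are given as CPM, here UMIs per 1000000 UMIs other than Hbb-y, Hbb-bh1 and Hba-x, and globins as percent of all UMIs.

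Smarcc1 (ENSMUSG00000032481, chromosome 9, 110117708 to 110240178, plus strand, GRCm38), the targeted gene, stood at 10.3 CPM in CKO members (7.76 to 13.3, 56 UMIs) and 74.3 CPM in WT members (65.8 to 83.6, 276 UMIs), a CKO over WT ratio of 0.138 (0.102 to 0.185). In CKO it was lower at each globin level. At 20 to 25%, 25 to 30% and over 30% embryonic globin it was 11.3, 8.86 and 10.6 CPM in CKO, against 86.3, 72.9 and 59.5 CPM in WT. In cells under 2% globin it was 33.3 CPM in CKO and 106 CPM in WT, a ratio of 0.314. The counts are per gene, so UMIs from exons outside the deletion cannot be told apart from the rest.

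Marker genes of the red cell lineage were high in members of both libraries. Alas2 averaged 1313 CPM in CKO members (cells from 171 through a median of 1200 to 3014) and 1233 CPM in WT members (326, 1203 and 2703), against 6.9 CPM in CKO and 1.61 CPM in WT cells under 2% globin. Slc4a1, the band 3 anion exchanger of the red cell membrane, was at 485 CPM in CKO members (0, 479 and 2053) and 318 CPM in WT members (0, 312 and 1459), a ratio of 1.53 (1.42 to 1.63). Klf1, the erythroid transcription factor that acts on CACCC elements, was at 329 CPM in CKO and 314 CPM in WT.

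Of the 7 genes listed as definitive erythroid, Myb and Bcl11a were nearly silent and the other 5 had at least 20 UMIs. Car1 had 114 UMIs in CKO members at 20 to 25% globin. Hbb-bt stood at 492 CPM in CKO members and 2466 CPM in WT members, and Hbb-bs, Hba-a1 and Hba-a2 are given below. Myb, which definitive erythroid progenitors need, gave 7 UMIs in all CKO members and 2 in all WT members, and Bcl11a, the repressor of embryonic globins in definitive cells, gave 4 in CKO and 1 in WT. Aqp3 and Aqp8, water channels taken as markers of primitive red cells, were present in both, at 53 and 18.7 CPM in CKO and at 128 and 42.3 CPM in WT. Both were at least 2-fold lower in CKO, as 2.99% of all genes tested were, with ratios of 0.414 (0.356 to 0.48) for Aqp3 and 0.443 (0.342 to 0.572) for Aqp8. Each was short of 2-fold in 1 sex, with a log2 ratio of -0.96 for Aqp3 in Y-linked cells and -0.52 for Aqp8 in Xist cells. Their place late in the primitive series rests on their globin share alone, and proliferation genes were expressed in them.

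The embryonic globins that chose the cells are given as a description. Hbb-y was the most abundant, at 12.9% of UMIs in CKO members (cells from 2.7 through a median of 12.9 to 23.5%) and 14.5% in WT members (6.73, 14.6 and 20.7%). Hbb-bh1 made 6.8% in CKO (3.73, 6.86 and 11.4%) and 6.69% in WT (4.28, 6.64 and 9.73%). Hba-x made 6.52% in CKO (2.47, 6.58 and 10.4%) and 5.92% in WT (2.62, 5.43 and 12.1%). The ranges of the libraries overlapped widely for each of these genes.

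The mixture within the alpha-like genes separated the libraries more than the mixture of Hbb-y and Hbb-bh1 did. Hba-x counts toward the rule and the adult alpha genes do not, so the Hba-x share is partly built in by the rule. Hba-x made 65.9% of alpha-like UMIs in CKO members (65.8 to 66.0%) and 54.0% in WT members (53.9 to 54.2%). Over single cells the CKO share ran from 47.9 to 76.3% with its middle quartiles at 62.6 and 68.9%, and the WT share from 36.7 to 66.4% with quartiles at 49.7 and 56.8%. The quartile ranges did not overlap, while the full ranges did. The gap was present at each globin level: from low to high globin the share was 66.6, 66.6 and 63.4% in CKO, against 54.7, 54.3 and 53.2% in WT. In lower-globin erythroblasts it was 69.6% in CKO and 57.7% in WT.

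The adult alpha genes made up the difference. Hba-a1 stood at 2.57% of UMIs in CKO members (cells from 1.46 through 2.47 to 6.76%) and 3.71% in WT members (1.25, 3.43 and 7.57%), and Hba-a2 at 0.804% in CKO (0.213, 0.782 and 2.51%) and 1.33% in WT (0.562, 1.28 and 2.45%). In CPM their CKO over WT ratios were 0.686 (0.682 to 0.691) and 0.598 (0.591 to 0.604), short of 2-fold. The copies are nearly identical and the counting of shared reads is a detail that the sources used here leave out, so the split between them is uncertain. Hba-a1 made 76.2% of the pair in CKO and 73.6% in WT.

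Within the embryonic beta genes the libraries lay closer together. Hbb-y made 65.6% of Hbb-y plus Hbb-bh1 in CKO members (cells from 19.1 through 66.1 to 77.5%) and 68.4% in WT members (46.6, 69.2 and 77.8%). Hbb-y is itself the largest part of the globin share, so its share by globin level is partly built in by the rule. It was 63.3, 66.4 and 67.6% in CKO and 64.5, 69 and 71% in WT from low to high globin, and it was 51.3% in CKO and 56% in WT lower-globin erythroblasts. Beta-like chains as a whole made 66.8% of globin UMIs in CKO and 66.2% in WT. Over single members, the Hbb-y share and the Hba-x share had a Pearson r of -0.14 in CKO (n = 207) and -0.48 in WT (n = 139), and the 2 shares in a cell come from the same library and share its depth.

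**Figure D2:**
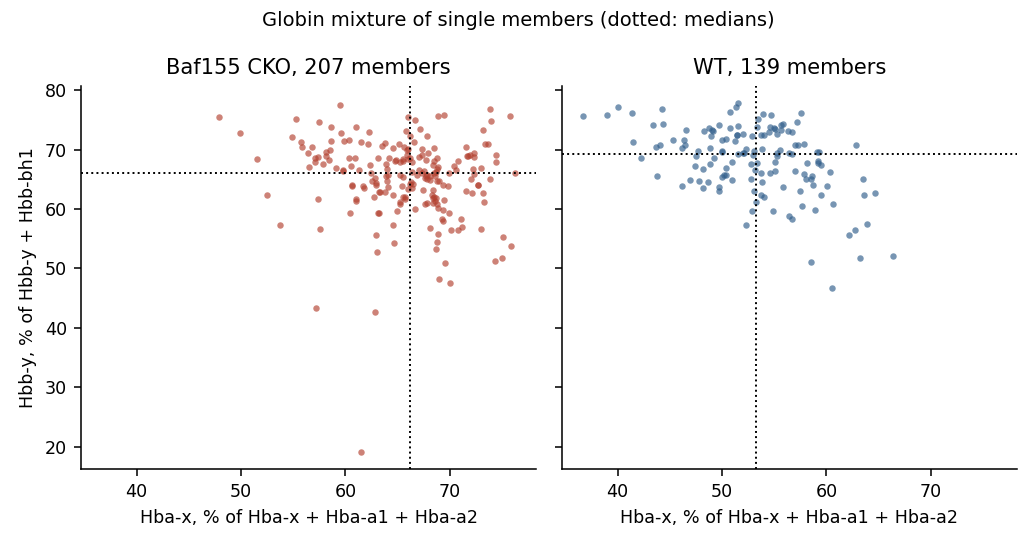
Hbb-y share of embryonic beta-like UMIs (vertical axis, percent) against Hba-x share of alpha-like UMIs (horizontal axis, percent), 1 point per member, with Baf155 CKO on the left, WT on the right and dotted lines at the medians. The CKO cloud sits further right, around 66.2% Hba-x, with 1 cell down at 19.1% Hbb-y; the WT cloud sits around 53.3% Hba-x and slopes down to the right.

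Adult beta globin was a trace in both libraries, and its composition differed. Hbb-bs and Hbb-bt together made 0.747% of beta-like UMIs in CKO members and 1.34% in WT members. Hbb-bs stood at 1525 CPM in CKO and 1479 CPM in WT, a ratio of 1.03 (0.996 to 1.07). In the median member Hbb-bs was lower in CKO, at 0.0236% of all UMIs, against 0.0611% in WT. Hbb-bt fell to 492 CPM in CKO, against 2466 CPM in WT, a ratio of 0.2 (0.191 to 0.208). In cells under 2% globin Hbb-bt ran the other way, at 43.9 CPM in CKO and 24.3 CPM in WT. The gap depended on the globin level. From low to high globin Hbb-bt was 580, 360 and 544 CPM in CKO members and 929, 2448 and 4720 CPM in WT members, and Hbb-bs was 1280, 2062 and 1007 CPM in CKO members and 970, 1528 and 2128 CPM in WT members. At 20 to 25% globin Hbb-bt was therefore short of 2-fold lower, and at 30% and over the log2 ratio of Hbb-bs was -1.08.

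Most CKO members with enough UMIs held mainly one adult beta gene or the other, while most such WT members held both. Among cells with at least 20 UMIs of the pair (96 in CKO, 108 in WT), Hbb-bs made 90% or more in 48 CKO and 23 WT cells, 10% or less in 14 CKO and 21 WT cells, and a value between in 34 CKO and 64 WT cells. The pair are neighbours of close sequence, so the split between them is uncertain for the same reason. Of the minor globins, the theta-like Hbq1b was at 170 CPM in CKO and 104 CPM in WT (1.63, 1.44 to 1.84), Hbb-bh2 had 66 UMIs in CKO and 46 in WT, and Hbq1a had 14 UMIs in CKO and 0 in WT, at least 3.18-fold higher when WT is set to a floor of 3 UMIs over the group.

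Several genes varied with the globin share of the cell. The metallothioneins Mt1 and Mt2, small proteins that bind zinc and copper, differed most among those drawn here. From lower-globin erythroblasts through members at 20 to 25% and 25 to 30% to those over 30%, Mt1 was 2000, 2902, 5909 and 17904 CPM in CKO and 1711, 4410, 7579 and 11427 CPM in WT. Hba-a1 ran 17467, 28888, 35305 and 49652 CPM in CKO and 26887, 40473, 49354 and 68367 CPM in WT, so the WT level was the higher one at each step. The 4 steps hold 58, 84, 83 and 40 CKO cells and 16, 49, 59 and 31 WT cells, and the WT start rests on those 16 cells.

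Haem synthesis varied less and was higher in CKO at each step. Its 9 enzymes summed to 6056, 7412, 7974 and 8824 CPM in CKO and 4661, 5496, 5665 and 6149 CPM in WT. Alas2 ran 833, 1149, 1380 and 1602 CPM in CKO and 647, 1073, 1235 and 1461 CPM in WT. Fth1, the ferritin heavy chain that stores iron, ran 3965, 5002, 5768 and 7901 CPM in CKO and 7803, 9098, 9682 and 10728 CPM in WT. Myc targets and ribosome biogenesis genes were lower in cells with more globin, at 9159, 8627, 7493 and 5069 CPM in CKO and 10323, 8473, 8114 and 6864 CPM in WT. Since the steps were cut by globin, these are descriptions of a gradient.

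**Figure D3:**
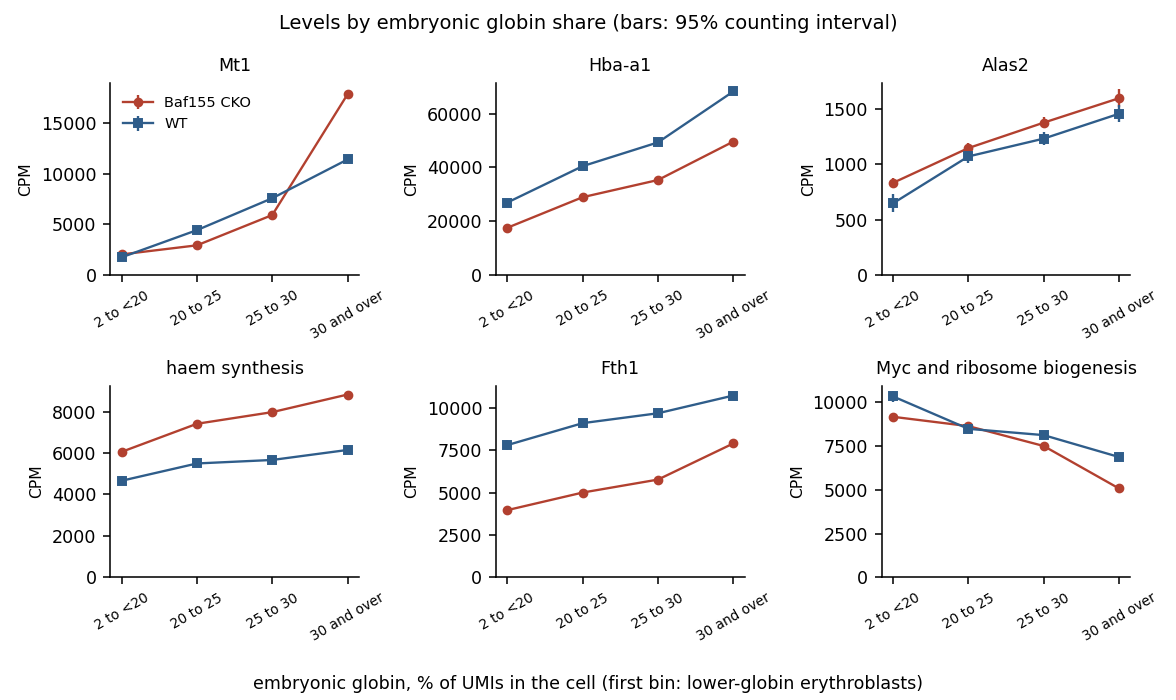
Summed level in CPM (vertical axes) of Mt1, Hba-a1, Alas2, the haem synthesis list, Fth1 and the Myc and ribosome biogenesis list, over lower-globin erythroblasts and members in 3 globin ranges (horizontal axis, low to high), with error bars for counting error. In both libraries Mt1, Hba-a1, Alas2, haem synthesis and Fth1 are higher, and Myc and ribosome genes lower, in cells with more globin; CKO lies above WT for haem synthesis and below it for Hba-a1 and Fth1 at each step.

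Metallothionein RNA varied widely among CKO members, many of which had hardly any. Mt1 and Mt2 summed to a median of 3632 CPM per CKO member, with quartiles at 181 and 16533 and a highest cell at 112168. In WT members the median was 11038, the quartiles 4257 and 21667, and the highest cell 43694. In CKO 68 members (32.9%) held under 500 CPM and 45 (21.7%) held 20000 or more, against 7 (5.04%) and 39 (28.1%) in WT.

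The level went with sex-linked RNA in CKO and hardly did so in WT. Members with Xist and no Y-linked UMI numbered 125 in CKO and 63 in WT, and members with a Y-linked UMI 66 in CKO and 53 in WT. Mt1 plus Mt2 was 3296 CPM in CKO Xist cells and 28457 CPM in CKO Y-linked cells, against 11715 CPM in WT Xist cells and 12634 CPM in WT Y-linked cells. The cell medians were 735 CPM in CKO Xist cells and 19092 CPM in CKO Y-linked cells, against 12145 CPM in WT Xist cells and 8729 CPM in WT Y-linked cells. Sex, embryo and stage cannot be told apart, since neither the number of embryos of each sex nor the stage of each cell is given. The split was chosen after its values were seen.

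Among the features compared by sex, Mt1 plus Mt2 and Hbb-bs turned direction. Mt1 plus Mt2 was lower in CKO than in WT in Xist cells and higher in Y-linked cells. Hbb-bs was at 1782 CPM in Xist and 1214 CPM in Y-linked CKO members, against 1548 CPM in Xist and 1472 CPM in Y-linked WT members. The Hba-x share, Smarcc1, Fabp5 and Fth1 kept theirs. The Hba-x share was 67% in Xist and 64.8% in Y-linked CKO members, against 55.6% in Xist and 52.9% in Y-linked WT members. In the same order, Smarcc1 was at 9.28 and 10.1 CPM in CKO and 76.7 and 77.7 CPM in WT. Fabp5 was at 34.8 and 64.7 CPM in CKO and 503 and 637 CPM in WT, and Fth1 at 4932 and 6912 CPM in CKO and 9309 and 9794 CPM in WT.

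Members were also set against lower-globin erythroblasts of the same library. The genes that differed most in both libraries included Mt1 and Mt2, higher in members, and Tmsb4x, lower in members. Of 19 red cell membrane genes 3 were at least 2-fold higher in members and 1 at least 2-fold lower, in each library. This contrast was chosen by globin, so it has no test and is read as a description. In CKO 119 of 8501 genes (1.4%) were at least 2-fold higher in members and 491 (5.78%) at least 2-fold lower, and in WT 526 of 6885 (7.64%) were higher and 405 (5.88%) lower.

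The genes that were higher in both libraries included Mt1 with ratios of 3.31 in CKO and 4.33 in WT, and Mt2 with 2.86 in CKO and 6.05 in WT. Plek2, a pleckstrin that organises actin in red cell precursors, had 2.94 in CKO and 2.39 in WT, and Kel, the Kell blood group protein, 2.16 in CKO and 2.13 in WT. Otub2, a deubiquitinase, had 2.21 in CKO and 2.16 in WT, the histone gene Hist1h2bc 2.2 in CKO and 8.69 in WT, and Hba-a1 2.0 in CKO and 1.89 in WT. The WT values rest on 16 lower-globin cells.

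Tmsb4x, which holds free actin monomers, was at 258 CPM in CKO members and 1997 CPM in CKO lower-globin cells (0.129), and at 128 CPM in WT members and 578 CPM in WT lower-globin cells (0.221). Tmsb10, of the same family, had ratios of 0.344 in CKO and 0.284 in WT, and Actg1, a cytoplasmic actin, 0.417 in CKO and 0.415 in WT. Cd47, the surface signal that restrains phagocytes, had 0.199 in CKO and 0.38 in WT, and the platelet integrin chain Itgb3 0.116 in CKO and 0.514 in WT.

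Megakaryocyte and stroma markers moved with this contrast in CKO. The 8 megakaryocyte markers summed to 201 CPM in CKO members and 1231 CPM in CKO lower-globin cells, and the 8 stroma markers to 172 CPM in CKO members and 614 CPM in CKO lower-globin cells. In WT the megakaryocyte sums were 18.6 CPM in members and 51.8 CPM in lower-globin cells, and the stroma sums 31.8 CPM in members and 9.87 CPM in lower-globin cells. Without the 4 CKO members and 8 CKO lower-globin cells that held 1000 CPM or more of these markers, 166 genes in place of 491 were at least 2-fold lower in CKO members, an alternative chosen after seeing the data.

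Between the genotypes, 640 of 8498 genes with at least 20 UMIs (7.53%) were at least 2-fold higher in CKO members and 254 (2.99%) at least 2-fold lower, on the scale log2(CPM + 0.5), and the median log2 ratio was 0.13. Among the 5342 genes with at least 100 UMIs, 210 (3.93%) were higher and 123 (2.3%) lower. A call here means the fold and nothing more, as there is 1 library on each side. The genes at both ends are given below, most with the pooled ratio in cells under 2% globin. Those cells are a mixture of types that differed between the libraries. Of them, 69.2% in CKO and 40.5% in WT held 1000 CPM or more of megakaryocyte and stroma markers. The part that this mixture had in the pooled ratios was not tested.

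Of the 12 genes with the highest ratios, all but Arhgdib were also higher in CKO in the pooled cells under 2% globin. Pgk1, a glycolytic kinase, rose to 210 CPM in CKO members (cells from 0 through 167 to 962), against 33.6 CPM in WT members (0, 0 and 230), a ratio of 6.24 (5.19 to 7.57), and its ratio in cells under 2% globin was 3.52. Srxn1, sulfiredoxin, which reactivates oxidised peroxiredoxins, was at 49 CPM in CKO and 5.92 CPM in WT (8.27, 5.35 to 13.4), with a ratio of 4.4 in the other cells. Btn1a1, a butyrophilin, was at 28.4 CPM in CKO and 2.42 CPM in WT (11.7, 6.03 to 26.2). In the other cells Btn1a1 was at 5.04 CPM in CKO and 0.0535 CPM in WT.

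Tdrkh, Schip1 and Arhgdib had higher ratios in members than in the other cells. Tdrkh, a Tudor-domain protein of the piRNA pathway, was at 18.3 CPM in CKO and 1.35 CPM in WT (13.6, 5.65 to 42.9), against a ratio of 2.19 in the other cells. Schip1 was at 17.8 CPM in CKO and 1.61 CPM in WT, a ratio of 11, against 1.42 in the other cells. Arhgdib, an inhibitor of small GTPases in blood cells, was at 16.9 CPM in CKO and 2.15 CPM in WT, a ratio of 7.84, against 0.913 in the other cells. The differences between these ratios were not tested.

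The remaining 6 are abundant in other cell types. Pf4 and Gp9 belong to megakaryocytes, and Dlk1, Postn, Sparc and Col3a1 to stromal and other mesodermal cells. Pf4 had 790 UMIs in CKO members and 1 UMI in WT members, and 84.8% of the CKO UMIs lay in 1 cell; without the top cell of each library it had 120 UMIs in CKO and 0 in WT. Col3a1 was at 29.5 CPM in CKO members and 3.77 CPM in WT members, a ratio of 7.84, and Dlk1 at 33.6 CPM in CKO and 2.96 CPM in WT, a ratio of 11.3. In cells under 2% globin Dlk1 was at 1091 CPM in CKO and 721 CPM in WT, a ratio of 1.51. The ratios there were 13.3 for Pf4, 2.87 for Gp9, 3.28 for Postn, 1.52 for Sparc and 1.56 for Col3a1.

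Over the whole marker lists, 5 of the 6 tested megakaryocyte markers and 7 of 7 tested stroma markers were at least 2-fold higher in CKO members. Of all genes, 7.53% were. From low to high globin the megakaryocyte sum was 370, 69.4 and 39.3 CPM in CKO members, and the stroma sum 253, 97.5 and 120 CPM. The megakaryocyte sum per cell reached 20130 CPM in CKO members and 119 CPM in WT members, and the stroma sum 11654 CPM in CKO and 191 CPM in WT, while 4 of the 8 megakaryocyte markers were at 0 in WT members. Endoderm markers went the other way, at 2.75 CPM in CKO and 18.3 CPM in WT members, as they did in cells under 2% globin, at 104 CPM in CKO and 2349 CPM in WT. Macrophage markers were at 1.47 CPM in CKO and 1.88 CPM in WT, and granulocyte-monocyte markers at 3.85 CPM in CKO and 2.42 CPM in WT. Endothelium markers were at 37.2 CPM in CKO and 41.7 CPM in WT, erythromyeloid progenitor markers at 25.7 CPM in CKO and 20.5 CPM in WT, lymphocyte markers at 0.367 CPM in CKO and 0.269 CPM in WT, and mast cell markers at 0 in both. Without the 4 CKO members at 1000 CPM or more of megakaryocyte and stroma markers, 593 genes were at least 2-fold higher in CKO and 260 lower, and the log2 ratio was 4.86 for Pf4, 2.51 for Gp9, 2.80 for Dlk1 and 2.09 for Col3a1. With those cells kept, the log2 ratio of Gp9 came to 0.65 at 30% globin and over. The part that free RNA of other cells had in these values was not tested.

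The 12 genes with the lowest ratios included a cytokine receptor chain and a fatty acid carrier. Csf2rb, the receptor chain shared by GM-CSF, IL-3 and IL-5, fell to 11.9 CPM in CKO members, against 129 CPM in WT members, a ratio of 0.0923 (0.0701 to 0.12), with 1.29 in the other cells. Fabp5, a carrier of fatty acids, fell to 51.9 CPM in CKO members (cells from 0 through 0 to 2243), against 588 CPM in WT members (0, 395 and 2340), a ratio of 0.0882 (0.0777 to 0.0999), while in the other cells it was at 486 CPM in CKO and 248 CPM in WT (1.96). Arhgdig, of the same family as Arhgdib, was at 3.67 CPM in CKO and 62.2 CPM in WT (0.059, 0.0354 to 0.0933), with 1.11 in the other cells. The cell medians of Fabp5 were thus 0 in CKO and well above 0 in WT.

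Among the other genes of the 12, Rgcc, a regulator of the cell cycle, was at 2.94 CPM in CKO and 46 CPM in WT (0.0638), and Hsd3b6, a steroid dehydrogenase, at 4.4 CPM in CKO and 63.2 CPM in WT (0.0696), with 54.2% of the CKO UMIs in 1 cell. Sh3bp1, which switches off small GTPases, had 4.95 CPM in CKO and 37.9 CPM in WT (0.131), and the stress-induced Nupr1 5.87 CPM in CKO and 35.5 CPM in WT (0.165). The homeobox gene Hesx1 had 6.24 CPM in CKO and 36.3 CPM in WT (0.172), coagulation factor F10 4.22 CPM in CKO and 22.1 CPM in WT (0.191), and Oaf 11.2 CPM in CKO and 55.2 CPM in WT (0.203). In the other cells the ratios were 0.889 for Rgcc, 0.856 for Sh3bp1, 0.688 for Nupr1, 0.88 for F10 and 0.757 for Oaf. Hesx1 had too few UMIs in the other cells for a ratio to be read. Smarcc1 and Hbb-bt, given above, complete the set. Fabp5 and Pgk1 have processed copies elsewhere in the genome, so their values carry the uncertainty of shared reads too.

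**Figure D4:**
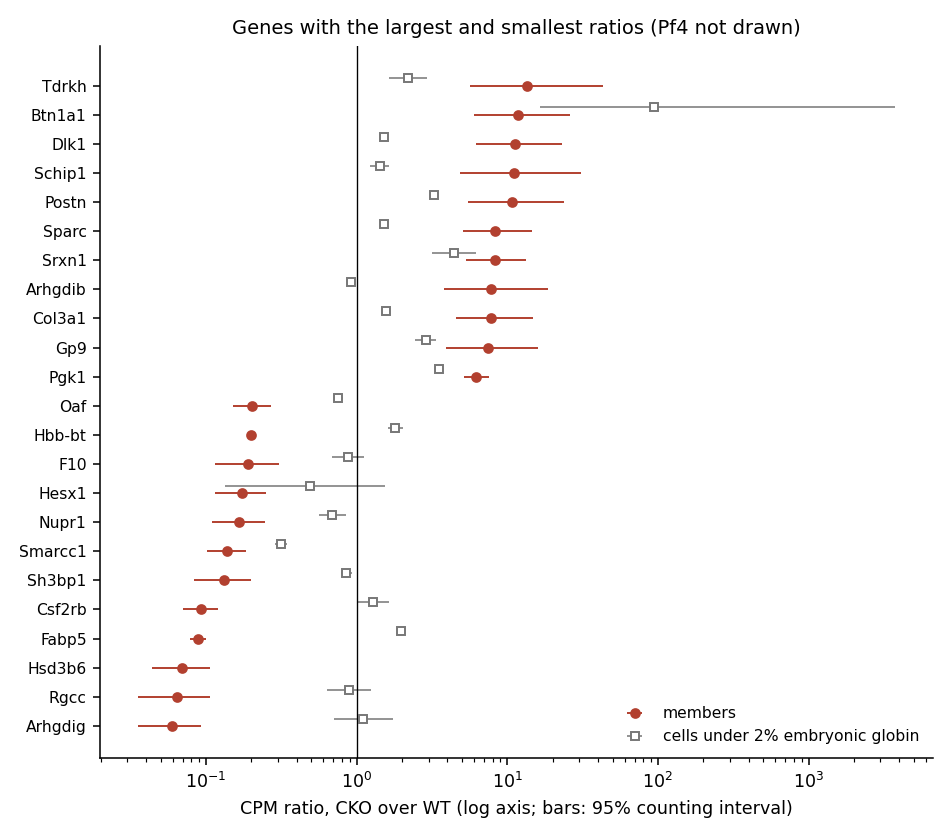
CKO over WT ratio of CPM (horizontal log axis) of the 12 highest and 12 lowest genes in members, with 95% counting intervals, and of the same genes in cells under 2% embryonic globin. Pf4 is not drawn, and Hsd3b6 has no value in the other cells, where it had 0 UMIs. Fabp5 and Hbb-bt lie below 1 in members and above 1 in the other cells. Of the highest genes drawn, all but Arhgdib lie above 1 in both.

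All 9 measured enzymes of haem synthesis had a higher level in CKO members, as 60.7% of all genes tested did, with a median log2 ratio of 0.59 against 0.13 over all genes. In this list only Alas1 (33 UMIs in CKO, 8 in WT, a ratio of 2.81, 1.27 to 7.05) passed 2-fold, as 7.53% of all genes did. Uros, which closes the tetrapyrrole ring, was at 240 CPM in CKO and 122 CPM in WT (1.97, 1.77 to 2.2), and Urod after it at 894 CPM in CKO and 593 CPM in WT (1.51). The rate-setting Alas2 itself had a ratio of 1.07, and Fech, which inserts the iron, 1.26. In the other cells Uros had a ratio of 0.863.

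Neither the mitochondrial carriers nor the iron genes moved as a block. Of 11 mitochondrial haem and iron-sulphur genes, 5 were higher and 6 lower (median log2 -0.00). Abcb10 was at 340 CPM in CKO and 199 CPM in WT (1.71), while its partner, the iron importer Slc25a37 (mitoferrin 1), was at 743 CPM in CKO and 952 CPM in WT (0.78), and Tspo fell to 46.8 CPM in CKO, against 101 CPM in WT (0.464; log2 -0.88 at 30% globin and over). Fth1 was at 5788 CPM in CKO and 9730 CPM in WT, a ratio of 0.595 (0.586 to 0.604), with 0.998 in the other cells, whereas Ftl1, the light chain, had 1.05 and the transferrin receptor Tfrc 1.06. Hmox1, haem oxygenase, rose with 94 UMIs in CKO and 4 in WT (16, 6.05 to 60), and Ncoa4, which delivers ferritin to autophagy, with 62 UMIs in CKO and 11 in WT (3.84, 2.01 to 8.09). Of the 16 iron genes tested 13 were higher and 3 lower, while 60.7% of all genes were higher. Their median log2 ratio of 0.16 was close to the 0.13 over all genes. Their summed level was lower in CKO, at 15730 CPM, against 19017 CPM in WT. Hmox1 and Ncoa4 were the only iron genes past 2-fold, and 7.53% of all genes were at least 2-fold higher.

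Of 19 red cell membrane genes 15 were higher in CKO, against 60.7% of all genes, with a median log2 ratio of 0.40. In each direction 1 passed 2-fold, while over all genes 7.53% rose and 2.99% fell that far. The beta spectrin Sptb had a ratio of 1.52, its anchor Ank1 1.52 and the actin cap Tmod1 1.56. Tmcc2 rose to 55.4 CPM in CKO, against 22.1 CPM in WT (2.51, 1.96 to 3.24; log2 0.88 in Y-linked cells). Among blood group genes, Rhd fell to 78.3 CPM in CKO, against 171 CPM in WT (0.457, 0.403 to 0.517; log2 -0.82 at 30% globin and over), while its partner Rhag had a ratio of 1.42.

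Of 18 erythroid transcription factors, 2 rose and 1 fell past 2-fold, with a median log2 ratio of 0.17; over all genes 7.53% rose and 2.99% fell. Nfe2, a bZIP activator of globin genes, rose to 130 CPM in CKO (cells with a median of 110 and up to 890), against 53 CPM in WT (median 43.4, up to 230), a ratio of 2.44 (2.08 to 2.88), and its small partner Mafk had 75 UMIs in CKO and 24 in WT (2.13, 1.33 to 3.53). Zbtb7a, a repressor of fetal globin in human cells, fell to 27.9 CPM in CKO, against 60.6 CPM in WT (0.46, 0.372 to 0.568). The log2 ratio of Nfe2 was 1.28 and came to 0.88 in Y-linked cells, and that of Zbtb7a was -1.11 and came to -0.86 in Xist cells, so both were short of 2-fold in 1 sex. Gata1 had a ratio of 1.28 and Tal1 1.81. Among chromatin regulators of globin genes, 11 were higher and 11 lower, and the histone demethylase Kdm1a fell to 23.8 CPM in CKO, against 62.7 CPM in WT (0.38), with 0.59 in the other cells and a log2 ratio of -0.98 in Y-linked members.

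The other subunits of the BAF complex did not shift together. Of 22 tested subunits, with Smarcc1 counted among them, 12 were higher and 10 lower, with a median log2 ratio of 0.06. Smarcc1 was the 1 subunit called lower. Over all genes 60.7% were higher, while 7.53% were called higher and 2.99% called lower. Smarcc2, which encodes the paralogue Baf170, had a ratio of 1.5 with an interval of 0.99 to 2.33 that includes 1. The ATPase Smarca4 had 1.19, Smarcb1 0.754 and Arid1a 1.42. Ss18 had 2.09 and was the 1 tested subunit called higher, with a log2 ratio of 0.57 at 30% globin and over.

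In the S phase list 35 of 39 genes were higher in CKO members, against 60.7% of all genes tested, and 5 passed 2-fold, against 7.53% of all genes. The median log2 ratio of the list was 0.59. Pcna, the sliding clamp of DNA polymerase, rose to 226 CPM in CKO, against 95.3 CPM in WT (2.38, 2.11 to 2.68), and the helicase subunit Mcm5 to 166 CPM in CKO, against 78.3 CPM in WT (2.12, 1.85 to 2.42). In the G2 and mitosis list 37 of 51 were higher and 1 passed 2-fold, with a median log2 ratio of 0.29, and Mki67 was at 250 CPM in CKO and 147 CPM in WT (1.7, 1.54 to 1.88). Pcna had a ratio of 1.11 and Mki67 of 1.06 in the other cells. The log2 ratio of Pcna came to 0.73 at 30% globin and over, and that of Mcm5 to 0.95 in Xist cells, both short of 2-fold. Of 12 cyclins and cell cycle inhibitors, 7 were higher and 5 lower, 2 passed 2-fold upward, and the median log2 ratio was 0.22. Ccnd3, the D cyclin that sets the number of divisions in red cell precursors, was at 889 CPM in CKO and 558 CPM in WT (1.59).

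Of 22 glycolytic and hypoxia genes 19 were higher in CKO and 5 passed 2-fold, against 60.7% and 7.53% of all genes, with a median log2 ratio of 0.51. Besides Pgk1, the glucose transporter Slc2a3 rose to 34.5 CPM in CKO, against 9.15 CPM in WT (3.77, 2.61 to 5.6), with 19.1% of its CKO UMIs in 1 cell, the mitophagy receptor Bnip3 to 78.1 CPM in CKO, against 24 CPM in WT (3.26, 2.59 to 4.15), and Eno1 to 495 CPM in CKO, against 235 CPM in WT (2.1, 1.95 to 2.27). Within 1 sex these calls were lost: the log2 ratio was 0.78 for both Bnip3 and Eno1 in Xist cells and 0.74 for Slc2a3 in Y-linked cells. Ldha was not higher, with 963 CPM in CKO and 1027 CPM in WT. Nuclear genes of oxidative phosphorylation leaned the other way, 20 of 26 lower with a median log2 ratio of -0.13 and 0 past 2-fold. Bpgm, which makes the 2,3-bisphosphoglycerate that loosens the grip of haemoglobin on oxygen, fell to 113 CPM in CKO (cell median 68.5), against 344 CPM in WT (271), a ratio of 0.329 (0.298 to 0.362).

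Redox genes were mixed, 12 of 19 higher, against 60.7% of all genes, with a median log2 ratio of 0.06. Cat, catalase, rose to 91 CPM in CKO, against 43.3 CPM in WT (2.1, 1.75 to 2.52; log2 0.91 in Y-linked cells), while Prdx2, the main red cell peroxiredoxin, was at 3711 CPM in CKO and 4446 CPM in WT (0.835). Car1, the carbonic anhydrase of definitive red cells, had 118 UMIs in CKO and 2 UMIs in WT (40.2, 10.9 to 336), with 23.7% of the CKO UMIs in 1 cell. Of its CKO UMIs, 114 lay in members at 20 to 25% globin, 4 at 25 to 30% and 0 at 30% and over, so cells near the rule's limit carried the value. In cells under 2% globin it ran the other way, with 10 UMIs in CKO and 227 in WT.

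Of 12 erythropoietin pathway genes 8 were higher, against 60.7% of all genes, with a median log2 ratio of 0.37. The receptor Epor was at 221 CPM in CKO and 154 CPM in WT (1.43), Pim1, a kinase it induces, at 301 CPM in CKO and 152 CPM in WT (1.99, 1.8 to 2.19), and Stat5b had 95 UMIs in CKO and 31 in WT (2.09; log2 0.54 at 30% globin and over). Of 21 late maturation genes 3 rose past 2-fold, against 7.53% of all genes. Among them Ypel3 was at 69.3 CPM in CKO and 28 CPM in WT (2.48, log2 0.84 in Xist cells). The mitophagy receptor Bnip3l was at 318 CPM in CKO and 215 CPM in WT (1.48). Among stress lists, p53 targets had a median log2 ratio of 0.10 over 17 genes, the integrated stress response 0.04 over 13, and heat shock and immediate early genes -0.28 over 19. Myc and ribosome biogenesis genes split 12 to 12 with a median of 0.00. Of 9 interferon-induced genes 8 were higher, against 60.7% of all genes, and 2 passed 2-fold, against 7.53%. Their median was 0.70, at summed levels of 119 CPM in CKO and 77.5 CPM in WT.

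**Figure D5:**
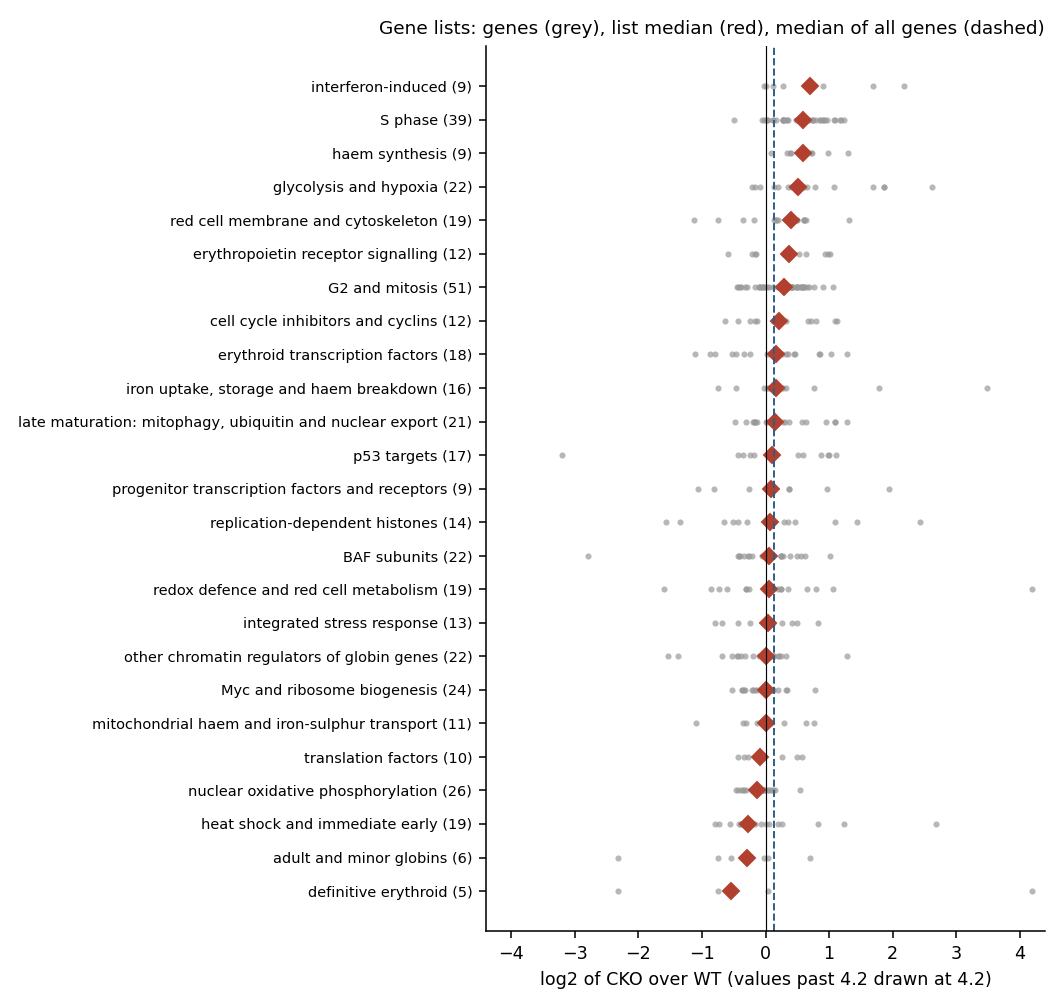
Log2 ratio of CKO over WT in members (horizontal axis, values past 4.2 drawn at 4.2) for each tested gene (grey points) of the gene lists. The list median is a red diamond and the median over all genes, 0.13, a dashed line. Lists with fewer than 3 tested genes and marker lists of other cell types are not drawn. Interferon-induced genes (0.70), S phase and haem synthesis (0.59 each) and glycolysis (0.51) have the highest medians of the lists drawn. The definitive erythroid list has the lowest (-0.54), which is the value of Hba-a1, an adult alpha gene that primitive cells express too. Its 5 tested genes ran from -2.32 for Hbb-bt to 4.41 for Car1, so they did not move together.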

How the data were processed

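Single-cell RNA was measured in 1 Baf155 CKO and 1 WT library. Reads were processed with Cell Ranger and Seurat against GRCm38, per the submitters' processing notes, which give no versions. The deposited matrices hold raw UMI counts per gene and barcode (33456 genes), as the authors deposited them, and were whole numbers.

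Kept barcodes had 500 genes or more and no more than 10% mitochondrial UMIs, and no doublet was removed. Raw counts were summed over the cells of a class and library. CPM is per 1000000 UMIs other than Hbb-y, Hbb-bh1 and Hba-x. Ratios have exact conditional binomial intervals, CPM exact Poisson intervals and shares exact binomial (Clopper-Pearson) intervals. Such intervals treat the UMIs of a cell as independent and hold no spread between embryos. A gene was called at 2-fold on log2(CPM + 0.5) if it had at least 20 UMIs. The procedure was tested on simulated data, drawn as Poisson sums without clumping of UMIs by cell. That setting matches what the intervals assume, so it cannot show how they perform on genes clumped in few cells. Scrublet was run per library at an expected rate of 1%, as an alternative only.

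The members, gene lists and tests were chosen with earlier results of these data known. Named genes were the 12 highest and 12 lowest CKO over WT ratios, and the 10 highest and 10 lowest members over lower-globin ratios shared by both libraries (most are given), among genes with at least 100 UMIs seen in at least 10% of members of the library with the higher level. Ribosomal, mitochondrial, predicted and sex-linked genes were left out. Globins, Smarcc1, markers and the most abundant or called list genes were named too, of which examples are given. Some list genes are not reported here. Promoters came from RefSeq (GRCm38.p6), and gene positions from GENCODE (mouse release 21), which held 97.6% of the IDs. Sums and intervals used scipy 1.17.1 with numpy 2.4.6 and pandas 2.3.3, doublet calls scanpy 1.11.5, and figures matplotlib 3.10.9, all under Python 3.11.15.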

Additional observations from a re-analysis of the deposited data

Results flagged for a closer look

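The CKO over WT ratio of 3 flagged genes ran one way in globin-rich erythroblasts and the opposite way in cells under 2% embryonic globin. They were not the only such genes. Csf2rb had ratios of 0.0923 and 1.29 in these classes, and Arhgdib 7.84 and 0.913. The difference between the classes was not tested, since there is 1 library per genotype. Fabp5 had a ratio of 0.0882 in globin-rich erythroblasts and 1.96 in the other cells. Hbb-bt had a ratio of 0.2 in globin-rich erythroblasts and 1.81 in the other cells; at 20 to 25% globin it was at 580 CPM in CKO and 929 CPM in WT. Car1 had a ratio of 40.2 (10.9 to 336, from 118 CKO and 2 WT UMIs) in globin-rich erythroblasts and 0.0477 (0.0226 to 0.0893) in the other cells. Of the CKO UMIs, 114 lay in cells at 20 to 25% globin, 4 at 25 to 30% and 0 at 30% and over. The level of Car1 in lower-globin erythroblasts was 256 CPM in CKO and 0 CPM in WT.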

How the results depend on the processing

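With 1 library per genotype the spread between embryos is unknown, and no result here has a replicate check. No paired analysis was possible because each genotype has 1 library. At 10% and 30% globin in place of 20%, members made 29.6 and 4.72% of CKO cells (24.4% as reported), and at 30% they made 3.94% of WT cells (17.7%). Over Xist-only and Y-linked cells the CKO share was 31.8 and 18.3%. In the order 10%, 30%, Xist-only and Y-linked, the Hba-x share was 66.3, 63.4, 67 and 64.8% in CKO and 54.3, 53.2, 55.6 and 52.9% in WT, and the Hbb-y share was 64.1, 67.6, 64.9 and 66% in CKO. The Hbb-y share in WT was 67.8, 71 and 67.9% for the first 3. The Smarcc1 ratio (0.138) ran from 0.121 to 0.179 over the alternatives.

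Counts of genes depended on the minimum and on the pseudocount. With at least 100 UMIs, at least 1 UMI, or 5 CPM added, 210, 1406 and 157 genes were higher in CKO (640 as reported) and 123, 514 and 115 lower (254); at 30% globin 425 were higher. In the same 3 settings, genes higher in members than in lower-globin erythroblasts numbered 20, 530 and 20 in CKO (119) and 74, 2212 and 250 in WT (526), and genes lower in members 102, 1327 and 214 in CKO (491) and 46, 1695 and 162 in WT (405). In CKO the higher count was 681 at 10% globin, 408 in Y-linked cells, 70 when scaled to all UMIs and 208 with cells weighted equally, and the lower count 1215 at 10%, 982 at 30%, 239 in Xist-only cells and 166 without cells high in megakaryocyte and stroma markers, the last chosen after seeing the data. In WT the higher count was 50 at 30% and 873 with cells weighted equally, and the lower count 687 when scaled to all UMIs and 266 after dividing by the median. The cause of these shifts was not tested.

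Among single-gene values, 399 fell outside the counting interval of the reported ratio under an alternative and 1877 did not. Values short of 2-fold could change sign, as Plvap did (0.77 as reported, -1.72 at the lowest). Among the single genes past 2-fold, Cd34 turned direction, from a log2 ratio of 1.94 (19 UMIs in CKO, 2 in WT) to -0.07 at 30% globin. Over all alternatives the list medians ran from 0.48 to 0.62 for haem synthesis, 0.31 to 0.62 for S phase and 0.30 to 0.83 for glycolysis. They ran from -0.72 to 0.15 for Myc and ribosome biogenesis. For interferon-induced genes the range was 0.26, with 5 CPM added, to 0.86.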

Other observations

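Outside the gene lists, 3 genes, chosen after their values were seen, differed by a similar amount in globin-rich erythroblasts and in cells under 2% embryonic globin. Rpl29, a ribosomal protein gene (chromosome 9, 106429454 to 106431568, GRCm38) was at 299 CPM in CKO and 2062 CPM in WT globin-rich erythroblasts (0.145), with a ratio of 0.154 in the other cells. Gm10709, a processed pseudogene on chromosome 9 (7751725 to 7752204), was at 1769 CPM in CKO and 10.8 CPM in WT (164), with a ratio of 173 in the other cells. Gm8730 was at 603 CPM in CKO and 2048 CPM in WT (0.295), with 0.374 in the other cells. Reads can be shared between copies of such genes, and how they were counted is not known here.

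Histone genes diverged among themselves. Hist1h2ap was at 745 CPM in CKO and 138 CPM in WT globin-rich erythroblasts (5.4), with 3.75 in the other cells, whereas Hist1h2bc had a ratio of 0.337 (log2 -0.52 at 30% globin and over) and Hist1h4d of 0.389. The 14 tested replication-dependent histones had a median log2 ratio of 0.07. Of these genes 3 were at least 2-fold higher in CKO and 2 at least 2-fold lower, against 7.53% and 2.99% of all genes.

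Mt1 and Mt2 were at similar levels in the globin-rich erythroblasts of both libraries when summed over cells, at 6612 and 6169 CPM in CKO and 7407 and 5467 CPM in WT. The cell medians lay further apart, at 1591 and 1952 CPM in CKO and 6511 and 4596 CPM in WT. Summed by sex, the pair was lower in CKO than in WT in Xist cells and higher in Y-linked cells. In cells under 2% embryonic globin their CKO over WT ratios were 0.188 for Mt1 and 0.183 for Mt2.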
